A study of Homo sapiens with 3 samples.

Results

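The genes of the interferon response and of RNA sensing were followed in HCT-116 colon carcinoma cells with and without siRNA against *APC*. There were 38 such genes, chosen by name, and all 38 have a row in the deposited table of 23131 gene symbols. Cells carry receptors for double-stranded RNA, among them RIG-I (encoded by *DDX58*), MDA5 (*IFIH1*), TLR3, the kinase PKR (*EIF2AK2*) and the oligoadenylate synthetases. When RIG-I or MDA5 binds RNA, the mitochondrial adaptor MAVS relays the signal to the transcription factors IRF3 and IRF7, and *IFNB1*, which encodes interferon beta, is transcribed. Secreted interferon then acts through its receptor and factors that include STAT2 and IRF9 on the interferon-stimulated genes, and the question addressed here is whether transcripts of this pathway differed between siRNA-transfected cells and cells that received no siRNA.

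HCT-116 is an established colon cancer line, and all conditions share its wild-type *APC* and the CTNNB1ΔSer45 allele, which encodes a degradation-resistant β-catenin. There were 3 libraries, 1 per condition: pooled anti-*APC* siRNA, pooled scrambled siRNA, and a control that its title calls untransfected and its treatment label calls mock-transfected with the reagent Dharmafect 2 alone. Cells were transfected 2 times on consecutive days and harvested 48 hours after the second. Values for scrambled siRNA were not used here, so the presence of siRNA and the loss of *APC* cannot be told apart between the 2 libraries compared, anti-*APC* and untransfected. With 1 library per condition there is no replicate check, and no p-value is given.

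Levels are FPKM, fragment counts scaled by transcript length and by the number of mapped reads, which the authors obtained with Cuffdiff. From the steps between the lowest values, the depth was estimated at 25000000 reads for the untransfected and 22800000 reads for the anti-*APC* library, and a 95% counting interval (exact Clopper-Pearson, on estimated reads) accompanies ratios of FPKM. These intervals cover counting error only, and sequencing reads without molecular identifiers are not independent molecules. The targeted gene *APC* had 9.15 FPKM in untransfected cells and 3.43 FPKM with anti-*APC* siRNA, 0.375 of the untransfected level (counting interval 0.346 to 0.407). *AXIN2*, a target of WNT signaling, went from 4.11 to 28.7 FPKM. Of 10 colon epithelial markers, *KRT8*, *KRT18*, *KRT19* and *EPCAM* lay between 170 and 588 FPKM, whereas 4 (*KRT20*, *VIL1*, *CDX1* and *LGALS4*) were under 1 FPKM in both libraries. The other 6 were all below the untransfected level, and *CDH1*, which encodes E-cadherin, was past 1.5-fold lower, at 19.02 and 12.1 FPKM. Of the 18 markers of leukocytes, fibroblasts, endothelium and plasmacytoid dendritic cells, only *CD68*, which encodes a lysosomal protein, and *COL1A1* exceeded 1 FPKM. *CD68* had 8.91 FPKM in untransfected and 5.01 FPKM in siRNA-transfected cells, and made up nearly all of the sum of the 6 leukocyte markers, 9.17 and 5.33 FPKM. The other 5 had at most 0.182 FPKM. Those of plasmacytoid dendritic cells, a main source of interferon in blood, summed to 0.0721 and 0 FPKM. The libraries came from cultures of the HCT-116 line alone, and the source of the *CD68* and *COL1A1* values was not tested.

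None of the expressed interferon and RNA sensing genes was past 1.5-fold between the libraries on the log2 scale of FPKM plus 1. Of the 38 genes, 23 had a mean of at least 1 FPKM over both libraries, and 0 of them were past the limit in either direction. In plain ratios of FPKM, 2 genes of low level, *IFIT1* and *IFI6*, were past 1.5-fold lower and 0 were past 1.5-fold higher. The share of all genes was taken over the 12197 genes of the table with a mean of at least 1 FPKM. On the scale of FPKM plus 1, 2.32% of them were past 1.5-fold higher, 4.31% were past 1.5-fold lower and 6.63% either way. With 0.01 FPKM added in place of 1, which is close to a plain ratio, 870 of the 12197 were past 1.5-fold lower and 364 higher. The 2 of the 23 past it at that setting were again *IFIT1* and *IFI6*. On the scale of FPKM plus 1, the log2 ratios of the 23 genes ran from -0.55 (*IFITM3*) to 0.25 (*ISG20*). Their median was -0.14 beside -0.05 for all genes. Levels were below those of untransfected cells for 14 of the 23 genes, and 58.6% of all genes were below as well. After the median of all genes was subtracted, 13 of the 23 were below and 10 above.

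**Figure D1:**
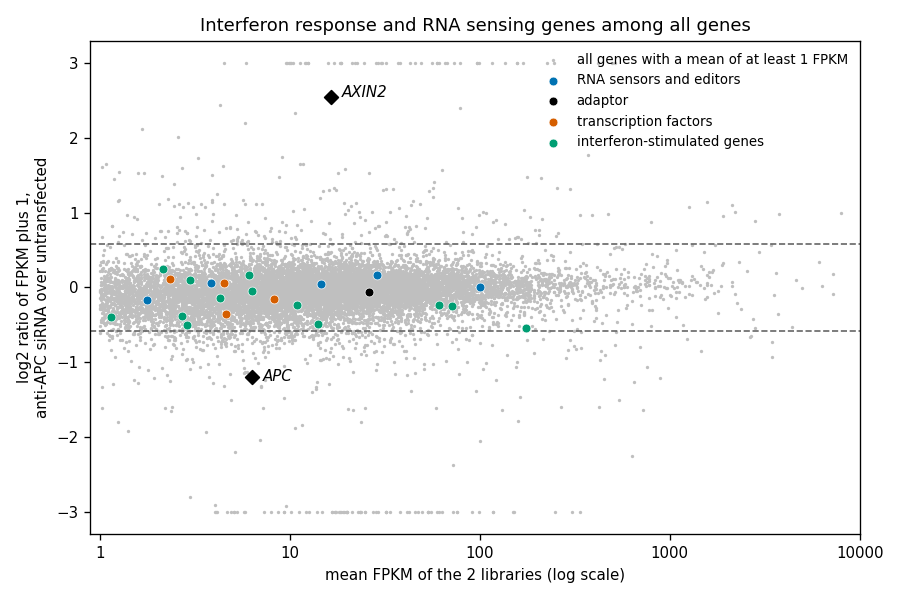
Each point is a gene with a mean of at least 1 FPKM, plotted by its mean over both libraries (horizontal, log scale) and its log2 ratio of FPKM plus 1, anti-*APC* siRNA over untransfected (vertical). The 23 interferon and RNA sensing genes (colours by role) all lie between the dashed lines at 1.5-fold, from -0.55 to 0.25, while *APC* and *AXIN2* (black diamonds) lie outside them; 127 genes beyond 3 are drawn at that limit and 2 genes above 10000 FPKM are not shown.

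Of the RNA sensors, 5 of 8 passed the level filter, and their log2 ratios of FPKM plus 1 lay between -0.17 and 0.17. *EIF2AK2* encodes PKR, which halts translation when it binds double-stranded RNA. It had 27.02 FPKM in untransfected cells and 30.4 FPKM with anti-*APC* siRNA, a ratio of 1.13 (counting interval 1.09 to 1.16). It was the only gene of the 23 whose counting interval lay above 1. The same was the case for 22.5% of the 11699 genes that passed the level filter and had a known transcript length. *EIF2AK2* shares 35 exon bases with *CCDC75* on the opposite strand, which went from 6.67 to 10.5 FPKM. The levels of the helicase genes differed little between the libraries. *DDX58* had 3.78 FPKM in untransfected and 3.96 FPKM in siRNA-transfected cells, a ratio of 1.05 (0.916 to 1.20). *IFIH1* had 1.95 and 1.61 FPKM, a ratio of 0.829 (0.643 to 1.06), so both intervals include 1.

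The oligoadenylate synthetases make the second messenger that activates RNase L, and they were at very different levels. *OAS3* had 14.3 FPKM in untransfected and 14.8 FPKM in siRNA-transfected cells, a ratio of 1.04 (0.970 to 1.11). *OAS1* was at 0.0266 and 0.0291 FPKM, which corresponds to about 1 read in each library. *OAS2* was at 0.0498 and 0.0698 FPKM, or an estimated 4.49 and 5.75 reads. The 3 genes lie side by side on chromosome 12 of GRCh37, *OAS1* from 113343661 to 113371024, *OAS3* from 113375856 to 113414265 and *OAS2* from 113416200 to 113449528, and only *OAS3* was well expressed in either library. *TLR3*, the endosomal receptor, had 0.574 FPKM in untransfected and 0.503 FPKM in siRNA-transfected cells, with a ratio of 0.876 (0.517 to 1.43). *ADAR*, which edits adenosine to inosine in double-stranded RNA, was the most abundant of these 8 genes. It had 100.1 FPKM in untransfected cells and 100.3 FPKM with siRNA, a ratio of 1.00 (0.980 to 1.03), and its untransfected level was at or above that of 91.7% of the 12197 genes.

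*MAVS*, the adaptor of RIG-I and MDA5, had 26.5 FPKM in untransfected cells and 25.4 FPKM with anti-*APC* siRNA. The ratio was 0.959 (counting interval 0.928 to 0.991). A list of 31 other genes of RNA and DNA sensing was followed beside it, of which 24 passed the level filter, and 1 was past 1.5-fold higher and 1 lower. Their median log2 ratio of FPKM plus 1 was -0.09. The increase was that of *TANK*, which encodes a scaffold that binds TRAF proteins and the kinase TBK1. *TANK* rose from 30.9 to 83.4 FPKM, a ratio of 2.70 (2.52 to 2.89), at a locus it shares with no other gene of the table. *TBK1* itself had 30.1 FPKM without and 32.0 FPKM with siRNA. The decrease was that of *RNF135*, which encodes a ubiquitin ligase of RIG-I, from 5.46 to 2.95 FPKM and a ratio of 0.540 (0.435 to 0.667). It shares a locus of the table with *DPRXP4*, which had 0.453 and 0.398 FPKM. *TLR7*, *TLR8*, *TLR9* and *ZBP1* had at most 0.0296 FPKM in either library.

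The transcription factors of the pathway stayed within 1.5-fold. *IRF9*, a DNA-binding partner of STAT2, had the lowest ratio among them. It was at 5.28 FPKM in untransfected cells and at 3.93 FPKM with anti-*APC* siRNA, 0.744 of the untransfected level (0.595 to 0.919). *STAT2* had 8.75 and 7.74 FPKM, a ratio of 0.884 (0.803 to 0.974). *IRF7*, the factor that amplifies the production of interferon, had 2.22 and 2.47 FPKM, a ratio of 1.11 (0.839 to 1.46). *IRF1* had 4.39 and 4.63 FPKM, a ratio of 1.06 (0.854 to 1.31). In the table it shares a locus with *C5orf56*, which went from 0.972 to 0.456 FPKM. *IRF5*, a factor in the list of other sensing genes, had 5.85 and 3.69 FPKM. Its plain ratio of 0.631 (0.534 to 0.741) was past 1.5-fold lower, and on the scale of FPKM plus 1 it was not. The same was the case for *NLRX1* of that list, which had 5.14 and 3.42 FPKM, a ratio of 0.666 (0.574 to 0.773). *IRF3*, which the sensors activate first, is listed at 0 in both libraries with the Cuffdiff status FAIL. The other gene at its locus, *BCL2L12*, has the same entry, as do 269 rows of the table in all, so the level of *IRF3* is not known from these data.

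*IFNB1*, a gene without introns on chromosome 9 of GRCh37 from 21077103 to 21077941, is listed at 0 in both libraries. At the depth of the untransfected library 1 read would be worth 0.0478 FPKM in it. Of 21 interferon genes in all, *IFNB1* included, 17 are listed at 0 in both libraries. The remaining 4 are *IFNE* and *IFNK* and the lambda interferon genes listed as *IL29* and *IL28A*. The highest of these is *IFNE*, a type I interferon of epithelia, at 0.659 FPKM in untransfected and 0.270 FPKM in siRNA-transfected cells, and none of the 21 passed the level filter. Of 18 receptors and signal transducers, a list that also holds *STAT2*, *IRF9* and *USP18*, 17 passed the filter. On the scale of FPKM plus 1, 0 of them were past 1.5-fold, with a median log2 ratio of -0.04. In plain ratios the receptor gene listed as *IL28RA* was past 1.5-fold lower. It had 4.74 and 3.12 FPKM, a ratio of 0.659 (0.511 to 0.842). *SOCS1*, which was below the filter and higher with siRNA, is given under other observations. The receptor chains for type I interferon were expressed, *IFNAR1* at 13.3 FPKM in untransfected and 13.6 FPKM in siRNA-transfected cells and *IFNAR2* at 8.48 and 10.2 FPKM.

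**Figure D2:**
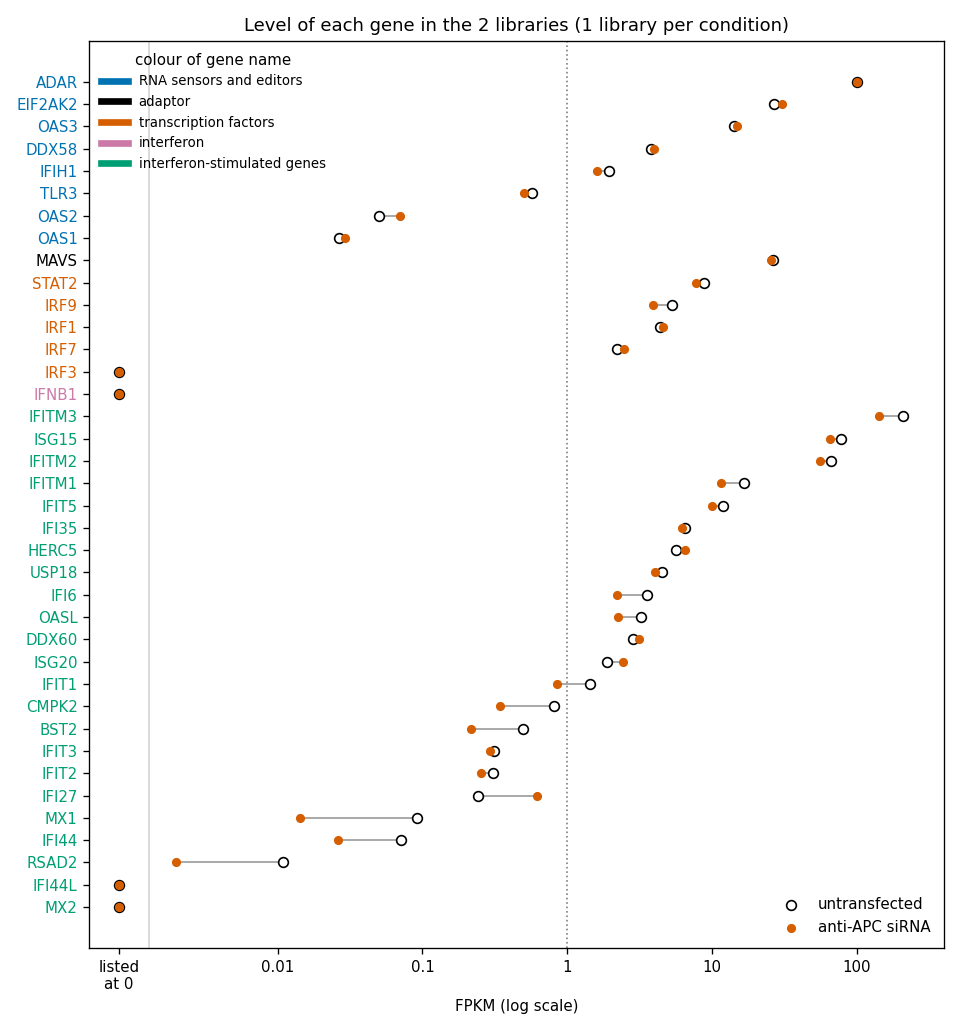
FPKM (horizontal, log scale) of each of the 38 genes in the untransfected library (open circles) and the anti-*APC* siRNA library (filled orange circles), with gene names coloured by role and the dotted line at 1 FPKM. Levels run from under the worth of 1 read (*RSAD2*) to 208 FPKM (*IFITM3*), and 4 genes are listed at 0 in both libraries.

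Interferon-stimulated genes formed the largest group, with 23 members, of which 13 passed the level filter. Of these 13, 10 were below and 3 above the untransfected level, with a median log2 ratio of FPKM plus 1 of -0.24. After the median of all genes was subtracted, 9 were below and 4 above. The *IFITM* genes encode membrane proteins that restrict the entry of viruses, and they were among the most abundant of the group in both libraries. *IFITM3* had 208 FPKM in untransfected cells and 142 FPKM with anti-*APC* siRNA, a ratio of 0.684 (counting interval 0.645 to 0.724). This is just short of a 1.5-fold decrease. *IFITM1* had 16.6 and 11.6 FPKM, a ratio of 0.695 (0.571 to 0.841). *IFITM2* had 65.97 and 55.7 FPKM, a ratio of 0.844 (0.771 to 0.925). All 3 were thus below the untransfected level, also after the median of all genes was subtracted, and they lie together on chromosome 11 of GRCh37, *IFITM2* from 303655 to 309397, *IFITM1* from 310041 to 315272 and *IFITM3* from 319676 to 329475. Their transcripts resemble each other, so that 21.9% of the 36-base windows of the *IFITM3* transcript also occur in *IFITM1* and 14.4% in *IFITM2*. How the authors' counting divided reads between them is not known, and their 3 values are uncertain to that extent.

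*ISG15* encodes a ubiquitin-like modifier and was likewise abundant without any added interferon, at 78.0 FPKM in untransfected cells. With anti-*APC* siRNA it had 65.3 FPKM, a ratio of 0.836 (0.771 to 0.907). *USP18*, the protease that removes ISG15 from proteins, had 4.53 and 4.03 FPKM, a ratio of 0.890 (0.719 to 1.10), and 31.0% of its 36-base windows are shared with its copy *USP41*. *HERC5*, the ligase that attaches ISG15, had 5.67 FPKM without and 6.47 FPKM with siRNA, a ratio of 1.14 (0.994 to 1.31). The intervals of the ligase and the protease both include 1.

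The *IFIT* genes, whose products bind viral RNA, span a cluster on chromosome 10 of GRCh37, from 91043451 (*IFIT2*) to 91181362 (*IFIT5*). *IFIT5* was the highest of them at 11.9 FPKM in untransfected and 9.97 FPKM in siRNA-transfected cells, a ratio of 0.837 (0.753 to 0.930). *IFIT1* had 1.43 and 0.850 FPKM. Its ratio of 0.595 (0.450 to 0.775) was the lowest among the 23 genes, and on the scale of FPKM plus 1 its log2 ratio was -0.39. *IFIT2* had 0.308 FPKM without and 0.253 FPKM with siRNA, and *IFIT3* had 0.314 and 0.294 FPKM. *IFIT1*, *IFIT2* and *IFIT3* overlap *LIPA* on the opposite strand, which went from 19.1 to 15.9 FPKM. The exons of *IFIT2* and *IFIT3* share 65 and 94 bases with it, and those of *IFIT1* share 0. The library kit named in the labels does not mark strand, so reads of the shared bases cannot be assigned by strand.

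*IFI6*, which encodes a small antiviral membrane protein, had 3.54 FPKM in untransfected cells and 2.21 FPKM with anti-*APC* siRNA. This was a ratio of 0.625 (0.421 to 0.934), and a log2 ratio of -0.50 on the scale of FPKM plus 1. *IFIT1* and *IFI6* were the 2 genes of the 23 whose plain FPKM ratio passed 1.5-fold. With a pseudocount of 0.1 FPKM both were past the limit, and with 0.5 FPKM neither was. At 0.1 FPKM, 830 of the 12197 genes were past it in the same direction. *OASL*, an oligoadenylate synthetase-like gene without the synthetase activity, had 3.21 and 2.23 FPKM, a ratio of 0.694 (0.527 to 0.910). *IFI35* had 6.47 and 6.25 FPKM, a ratio of 0.967 (0.782 to 1.19). *DDX60*, a helicase gene, had 2.85 and 3.13 FPKM, a ratio of 1.10 (0.964 to 1.26). *ISG20*, an RNA exonuclease, had 1.88 FPKM without and 2.42 FPKM with siRNA, a ratio of 1.29 (0.890 to 1.88). It had the highest ratio of the 23 genes, and its interval includes both 1 and 1.5.

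**Figure D3:**
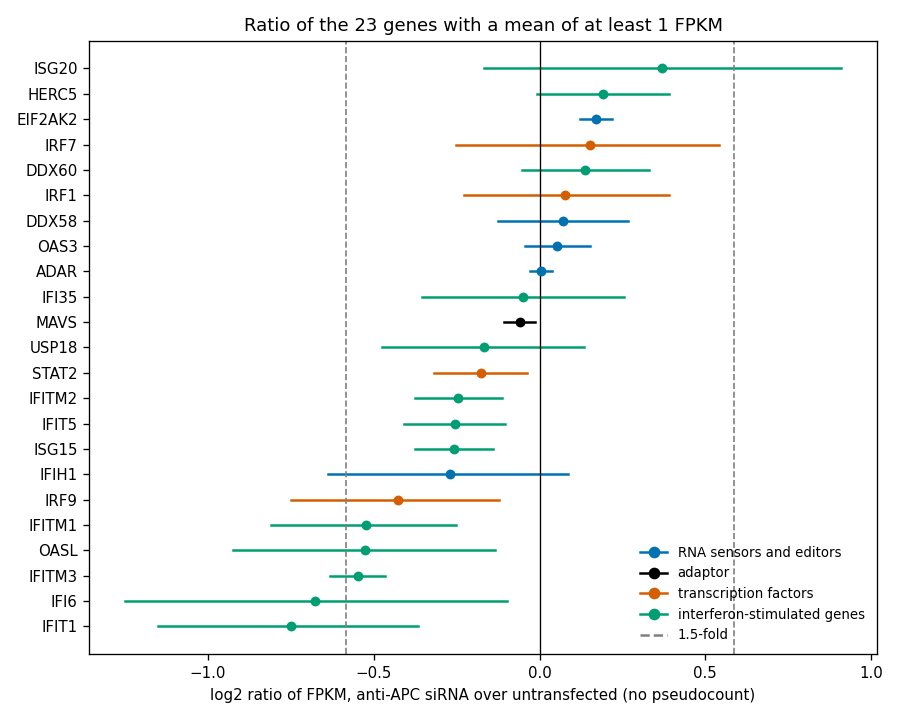
Log2 ratio of FPKM without a pseudocount, anti-*APC* siRNA over untransfected (horizontal), for the 23 genes with a mean of at least 1 FPKM. Points are the ratios, bars are 95% intervals for counting error only, and dashed lines mark 1.5-fold: 11 bars lie below a ratio of 1 and 1 above it, and 22 of 23 bars end short of a 1.5-fold increase.

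In counting error alone, 22 of the 23 intervals lay wholly under a 1.5-fold increase, *ISG20* being the exception, and 16 lay wholly above a decrease of the same size. The interval was below 1 for 11 of the 23 genes. It was below 1 for 35.0% of the 11699 genes that passed the level filter and had a known length. Counting error was thus exceeded by a large share of all genes, and by itself it does not set these genes apart.

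The remaining interferon-stimulated genes were under the level filter, and several had only a few estimated reads. *MX1* encodes a GTPase that is among the genes most strongly induced by type I interferon. It was at 0.0916 FPKM in untransfected cells and 0.0142 FPKM with anti-*APC* siRNA, an estimated 7.54 and 1.07 reads, and the interval of its ratio reaches from 0.00309 to 1.02. *IFI44* had 0.0713 and 0.0260 FPKM, or 2.99 and 0.998 reads. *MX2* and *IFI44L* are listed at 0 in both libraries. All of these sit at or near 0 in both libraries, and their ratios are not informative. *RSAD2*, which encodes the antiviral enzyme viperin, had 0.0109 and 0.00200 FPKM, less than the worth of 1 read. Its neighbour *CMPK2*, a nucleotide kinase gene that shares 351 exon bases with it on the opposite strand, had 0.806 and 0.342 FPKM. The ratio of *CMPK2* was 0.424 (0.224 to 0.778), from an estimated 41.1 and 15.9 reads, and its interval lay below 1. *BST2*, which encodes tetherin, had 0.492 and 0.216 FPKM, a ratio of 0.438 (0.126 to 1.39). *IFI27* had 0.243 FPKM without and 0.622 FPKM with siRNA, a ratio of 2.56, but its estimated 3.74 and 8.73 reads give an interval that starts at 0.688 and includes 1. Of the 11 genes that were above 0 but under the level filter, 8 were below and 3 above the untransfected level.

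Many promoters of these genes carry the interferon-stimulated response element (ISRE), a site that IRF9 binds together with STAT2. RefSeq windows (build GRCh38.p14) from 250 bases before to 50 bases after the start site were matched for 30 of the 38 genes and searched on both strands for GAAANNGAAA, counting overlapping matches each. A match was found in 19 of the 30 windows (63.3%), beside 3.57% of 35116 windows of the same length. The pattern TTCNNNGAA of the gamma-activated site, which reads the same on both strands and may overlap the other, was found in 10 of the 30 (33.3%), beside 7.66% of all windows. A match describes letters and is not evidence of binding. The 4 windows shown carry the element and belong to *IFIT1* (chr10:89392373-89392622, plus strand) and *IFI6* (chr1:27672193-27672442, minus strand), the genes with the lowest FPKM ratios among the 23 past the level filter, to *ISG15* (chr1:1013247-1013496, plus strand), an abundant one, and to *OAS3* (chr12:112938224-112938473, plus strand), whose level hardly differed. The 250 bases before the start site are printed 5′ to 3′ on the strand of the gene, and capitals mark the matches, which in *IFIT1* are on the opposite strand.
IFIT1: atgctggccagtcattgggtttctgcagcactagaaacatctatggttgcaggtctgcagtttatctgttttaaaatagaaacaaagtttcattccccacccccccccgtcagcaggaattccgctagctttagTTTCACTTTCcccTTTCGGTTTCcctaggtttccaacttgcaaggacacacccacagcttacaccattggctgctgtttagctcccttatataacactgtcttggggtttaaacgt
IFI6: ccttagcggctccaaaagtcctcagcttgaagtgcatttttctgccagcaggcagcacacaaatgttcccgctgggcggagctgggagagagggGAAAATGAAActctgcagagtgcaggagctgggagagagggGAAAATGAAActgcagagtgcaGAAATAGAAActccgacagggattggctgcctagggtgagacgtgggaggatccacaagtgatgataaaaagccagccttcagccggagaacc
ISG15: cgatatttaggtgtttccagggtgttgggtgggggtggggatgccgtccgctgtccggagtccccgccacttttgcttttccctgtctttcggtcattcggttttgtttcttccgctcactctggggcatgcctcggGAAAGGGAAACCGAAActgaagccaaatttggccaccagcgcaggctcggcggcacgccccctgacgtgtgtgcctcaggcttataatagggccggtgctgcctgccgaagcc
OAS3: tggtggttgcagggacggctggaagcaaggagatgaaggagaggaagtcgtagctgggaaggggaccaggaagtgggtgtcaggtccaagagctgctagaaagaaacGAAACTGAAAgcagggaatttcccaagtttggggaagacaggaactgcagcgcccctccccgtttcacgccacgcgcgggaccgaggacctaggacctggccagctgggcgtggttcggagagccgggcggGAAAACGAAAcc

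Matches begin 113 and 107 bases before the start site in *ISG15*, where they overlap, and 143 and 12 bases before it in *OAS3*. *IFI6* has 3 matches, at 156, 115 and 93 bases, and *IFIT1* has 2, the nearer at 103 bases. The matched windows divide the 23 genes that passed the level filter into 12 with a match, 7 without and 4 that had no window. Each window stands for a single start site of its gene, and other start sites of these genes were not considered. Log2 ratios of FPKM plus 1 ran from -0.55 to 0.25 among the 12 with a match, and 7 of them were below the untransfected level, with a median of -0.20. Among the 7 without a match they ran from -0.35 to 0.06, and 4 were below, with a median of -0.04. The ranges overlap. Of the 19 genes with a match, 7 were under the level filter, *MX1*, *IFI44* and *IFI44L* among them.

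A second list of 68 interferon-stimulated genes, none of them among the 38, was read beside them. Of its 38 genes that passed the level filter, 0 were past 1.5-fold higher and 1 was past 1.5-fold lower, with a median log2 ratio of FPKM plus 1 of -0.11. The 1 decrease was that of *UBE2L6*, which encodes the conjugating enzyme for ISG15, from 12.4 to 7.90 FPKM and a ratio of 0.635 (counting interval 0.541 to 0.743). In plain ratios *SLFN5* (0.624), *RNF213* (0.632) and *C19orf66* (0.638) were past 1.5-fold lower as well. With a pseudocount of 0.1 FPKM, 4 genes of the list were past the limit lower and 0 higher. At that pseudocount 830 of all 12197 genes past the level filter were lower and 356 higher. At 0.01 FPKM, close to a plain ratio, these were 870 and 364. The chemokine gene *CXCL10* is listed at 0 in both libraries, and *CXCL11* and *CCL5* had at most 0.0387 FPKM. Of 17 genes of class I antigen presentation, 13 passed the filter and 0 were past the limit, with a median of -0.22. *HLA-C* had 143 FPKM in untransfected and 104 FPKM in siRNA-transfected cells, whereas *B2M*, its partner chain, had 306 and 303 FPKM. Class I heavy chain genes resemble each other, so the value of *HLA-C* is uncertain. Of 21 genes of NF-κB and its early targets, which the same sensors can activate, 13 passed the filter and 0 were past the limit, with a median of -0.14. *NFKBIA*, a direct target and inhibitor of NF-κB, had 14.9 FPKM without and 13.3 FPKM with siRNA, and *TNFAIP3* had 1.60 and 1.27 FPKM.

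**Figure D4:**
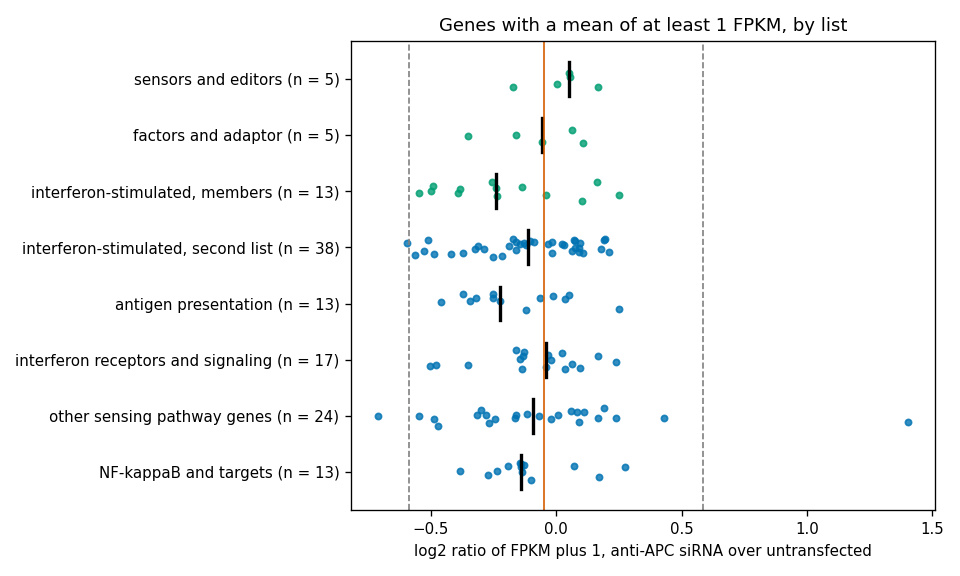
Log2 ratio of FPKM plus 1, anti-*APC* siRNA over untransfected (horizontal), for genes with a mean of at least 1 FPKM in each list, with vertical scatter added for legibility, black bars for the list medians, the orange line for the median of all genes and dashed lines for 1.5-fold. Points past the dashed lines are *TANK* on the right and *RNF135* and *UBE2L6* on the left, and no member of the 38 genes (green) is past them.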

How the data were processed

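The authors prepared single-read TruSeq libraries, assigned reads with Cufflinks and compared libraries with Cuffdiff on hg19 (tools and build per the labels). Versions, aligner and annotation are not given in the sources used here. The deposited values are FPKM for 1 anti-*APC* and 1 untransfected library. Further columns hold the natural log fold change, test statistic, p-value, q-value and significance of the authors' own comparison. They were not used.

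Members and gene lists were chosen with earlier results of these data known. Ratios are log2 of FPKM plus 1, for genes with a mean of at least 1 FPKM, and the limit is 1.5-fold. No test was run. Genes named are the 38 members, list genes past the limit, genes sharing a locus or sequence with a member, *APC* and *AXIN2*. Other genes, such as *TBK1*, *IFNAR1*, *HLA-C* and *NFKBIA*, were named after their values were seen.

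Depth came from genes with low values: 363 had 1 common ratio (within 0.01 on the log2 scale), and 20 genes with a single transcript gave its scale. Reads per gene used the median length of coding transcripts in GENCODE 44 on GRCh37 and are approximate. The depth estimate and the calls past 1.5-fold were tested on simulated data. The reads per gene and the counting intervals were not. Coordinates of genes are those of GENCODE. Alternatives were other pseudocounts, filters, a fold limit of 2, median centring and loci with 1 gene. Python 3.11.15, numpy 2.4.6, pandas 2.3.3, scipy 1.17.1 and matplotlib 3.10.9 were used.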

Additional observations from a re-analysis of the deposited data

How the results depend on the processing

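Counts of the 38 genes past 1.5-fold higher stayed at 0 under every alternative run, and those past 1.5-fold lower at 0 except with a pseudocount of 0.1 or 0.01 FPKM (the latter chosen after the data were seen), where they were 2, *IFIT1* and *IFI6*. The median of the 23 genes ranged from -0.17 (pseudocount of 0.01 FPKM) to -0.09 (median subtracted). It was -0.06 over 34 genes without a filter, -0.11 over the 12 genes with a mean of at least 5 FPKM and -0.15 over the 22 genes alone at their locus. For the second list the count of decreases was 4 at pseudocounts of 0.1 and 0.01 FPKM, 2 at 0.5 FPKM, and 0 with the median subtracted or a fold limit of 2. For all genes, decreases numbered 830 at 0.1 FPKM and 870 at 0.01 FPKM, against 526. A fold limit of 2 left 136 increases and 163 decreases of all genes, and loci with 1 gene left 136 and 299, from 9184 genes. A smaller pseudocount or a higher limit changes such counts by construction. The median-subtracted split of all genes was 327 higher and 425 lower, against 283 and 526. Scrambled siRNA could not be used as the control, and with 1 library per condition no library could be left out. Depth limits *OAS1*, *OAS2*, *MX1*, *IFI44* and *RSAD2* to fewer than 8 estimated reads per library.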

Other observations

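One feedback gene of the pathway stood apart below the level filter and was chosen after its values were seen. *SOCS1*, which encodes an inhibitor of JAK kinases and is induced by interferons and cytokines, had 0.322 FPKM in untransfected cells and 1.53 FPKM with anti-*APC* siRNA. The ratio was 4.75 (95% counting interval 2.55 to 9.95, from an estimated 12.1 and 52.6 reads), and the log2 ratio of FPKM plus 1 was 0.94. *SOCS3*, a related inhibitor, had 5.72 FPKM without and 5.08 FPKM with siRNA. *SOCS1* overlaps the bounds of *RMI2* in GENCODE, which went from 10.9 to 8.58 FPKM. No replicate bears on the value of *SOCS1*, and its cause was not tested.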
